A study of Mus musculus with 5 samples.

Results

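The genes to which SOX7-Dam peaks were assigned in mouse endothelial precursor cells are described here by biotype, family and function. The members were taken as every gene row of the SOX7-Dam table. They came to 6530 genes with 10029 distinct peaks, of 18355 gene rows over the tables of SOX7, FLI1 and ERG. There were 10246 rows for FLI1 and 1579 for ERG, and both tables served as background only.

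The study used DamID, in which a protein fused to the bacterial methylase Dam marks adenines in GATC sites near the DNA it visits, and the marked fragments are sequenced. The SOX7 library came from the embryonic stem cell line iSox7::Dam and its control, Dam with no factor, from the line iDam. Both lines derive from Ainv18, as do the FLI1 and ERG lines. FLK1+ cells were isolated from embryoid bodies at day 3, held for 1 day in blast culture with 5 ng/ml VEGF and 10 ng/ml IL6, and sorted as cKIT+ TIE2+. Each group was 1 library of 1 line, so differences between factors cannot be told apart from differences between lines or libraries, and no test was possible. The control library had no peak table here, so no background value stands beside any peak.

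SOX7 belongs with SOX17 and SOX18 to the SOXF subgroup of SOX factors, which bind the minor groove of DNA through an HMG box and bend it. SOXF factors act in the formation of arteries, veins and lymphatic vessels, and SOX7 is present at the onset of blood formation in haemogenic endothelium. SOX factors recognise short motifs around ACAAT, often beside a partner factor. Dam methylation spreads over neighbouring GATC sites, so a DamID peak is broader than a factor's footprint. A peak near a gene is a contact and not a measure of that gene's expression.

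Promoter sequences are shown for Edn1, Kdr and Egfl7, because these vascular genes return in the results below. Edn1 encodes the vasoconstrictor peptide endothelin-1, Kdr the main VEGF receptor of endothelium, and Egfl7 a secreted endothelial matrix protein whose gene also hosts miR-126. The windows run from 250 bases before to 50 bases after a RefSeq gene start on GRCm38.p6. GATC and ACAAT, the latter also as its reverse complement ATTGT, are in capitals. The peaks are on another build, mm9, so no peak was placed relative to these windows.
Edn1, chr13:42301226-42301525, plus strand: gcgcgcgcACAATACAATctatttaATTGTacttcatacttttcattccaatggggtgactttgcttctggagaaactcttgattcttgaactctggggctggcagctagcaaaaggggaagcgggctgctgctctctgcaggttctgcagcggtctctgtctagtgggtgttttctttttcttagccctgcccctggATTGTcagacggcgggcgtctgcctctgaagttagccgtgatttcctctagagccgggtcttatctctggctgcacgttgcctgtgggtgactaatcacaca
Kdr, chr5:75978406-75978705, minus strand: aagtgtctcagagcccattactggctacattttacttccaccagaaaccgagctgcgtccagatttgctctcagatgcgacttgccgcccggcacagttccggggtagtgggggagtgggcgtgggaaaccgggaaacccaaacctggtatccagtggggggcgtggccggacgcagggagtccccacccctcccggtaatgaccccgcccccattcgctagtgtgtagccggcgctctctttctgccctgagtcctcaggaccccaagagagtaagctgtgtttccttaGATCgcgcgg
Egfl7, second start, chr2:26583615-26583914, plus strand: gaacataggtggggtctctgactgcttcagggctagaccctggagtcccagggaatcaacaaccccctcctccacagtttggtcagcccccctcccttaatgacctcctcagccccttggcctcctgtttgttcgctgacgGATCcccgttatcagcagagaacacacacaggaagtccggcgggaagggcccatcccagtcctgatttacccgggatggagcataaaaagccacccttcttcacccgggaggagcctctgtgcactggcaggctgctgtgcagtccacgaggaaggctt
The Edn1 window held 4 matches to ACAAT on either strand and 0 to GATC. The Kdr window and the second Egfl7 window each held 1 GATC and 0 matches to ACAAT. A match is a description of the letters and not a binding site.

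Over all RefSeq windows of protein-coding genes, 46.6% of 21263 held GATC, 27.7% held ACAAT on either strand and 2.92% held ACAATGG, a longer form that contains ACAAT. Among the 5312 windows of SOX7-listed genes the shares were 45.4%, 22.3% and 2.65%. Windows of genes outside the list held ACAAT in 29.5% of cases, above the listed genes. Base composition moved with this difference: the median GC content was 60.0% in windows of listed genes and 55.3% in the others, and its part in the result was not tested.

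Read density is the number of reads in a gene's peaks divided by their summed length in kb. Its median over the 6530 genes was 48.8 reads per kb and the median read count was 95. Read counts ran from 13 to 3041 per gene. The genes are ranked below by density, and a percentile is the position of a gene among all 6530, with 100 as the densest. Intervals given with densities and shares are 95% Poisson and exact binomial (Clopper-Pearson) intervals. They cover counting error only, because amplified reads without molecular identifiers are not independent molecules.

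**Figure D1:**
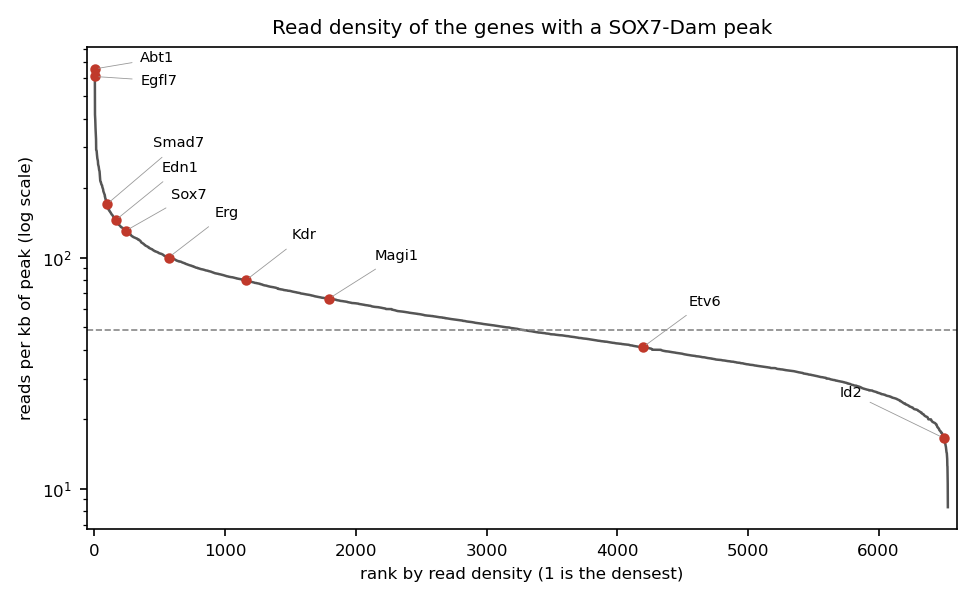
Read density in reads per kb of peak (log axis) against rank for all 6530 listed genes, with the dashed line at the median of 48.8. The curve is steep at its left end, where Abt1 and Egfl7 stand at 656 and 608 reads per kb, and Sox7, Edn1 and Smad7 lie in the upper part while Etv6 and Id2 lie below the median.

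The 20 densest genes ranged from 279 to 656 reads per kb, and each of them had a single peak. Abt1, which encodes a nucleolar protein that binds the basal transcription machinery, came first with 722 reads in a peak at mm9 chr13:23503753-23504853, or 656 reads per kb (608.8 to 705). Egfl7 was next with 608 reads per kb, and its peak of 5001 bp at chr2:26426499-26431499 held 3041 reads, the highest count in the table. Abt1 was thus dense over 1101 bp, whereas Egfl7 combined density with width.

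The other dense genes had mixed functions. The pseudogene Gm12849 had 833 reads at 595 reads per kb. Creb3l4, a membrane-tethered transcription factor of the CREB3 group, had 541 reads at 416 reads per kb. Hist1h2bh, a core histone gene, had 345 reads at 405 reads per kb. These were followed by Chst5, a sulfotransferase, at 364, Nptn, a neuronal adhesion molecule, at 325 and U2af1, a splice site recognition factor, at 288 reads per kb. A single peak with 819 reads stood for 3 of the 20 rows, Refbp2, the spliceosomal RNA gene U5 and B930036N10Rik, and another stood for Muc13 and Gm15657. The 20 rows therefore rested on 17 distinct peaks.

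Of the 20 densest genes, 14 were also in the FLI1 list, where their median percentile was 99.3, and 4 were in the ERG list. In the densest 10% of SOX7 genes, 72.0% were in the FLI1 list, against 69.1% of all SOX7 genes and 55.9% of the least dense 10%. The corresponding ERG shares were 19.4%, 14.8% and 7.50%. At Abt1, Egfl7 and Gm12849 the SOX7 peak met a FLI1 peak, while at Creb3l4 and Hist1h2bh it did not. The share of all SOX7 peaks that met a FLI1 peak is not given here. Counts of such meetings at named genes, here and below, therefore have no background beside them. At the other end, Pabpc5 had 20 reads at 8.33 reads per kb, Gm5135 19 reads at 10.6 and the miRNA clone AL773580.1 17 reads at 11.3. All 3 of these genes lie on chromosome X.

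Most listed genes, 4499 or 68.9%, had 1 peak. There were 1131 genes with 2 peaks, 663 with 3 to 4, 210 with 5 to 9 and 27 with 10 or more. Median density changed little over these classes, from 47.5 reads per kb with 1 peak to 51.7 with 10 or more. The dense tail did change: 11.8% of 1-peak genes, 4.68% of genes with 3 to 4 peaks and 0% of the 27 genes with 10 or more were in the densest 10%. The density of a gene with several peaks is an average over them. The 529 1-peak genes in the densest 10% of the whole list had a median peak width of 1201 bp and 154 reads, and the other 3970 had 1401 bp and 62 reads. Density is reads over width, so this difference follows in part from how the genes were split.

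**Figure D2:**
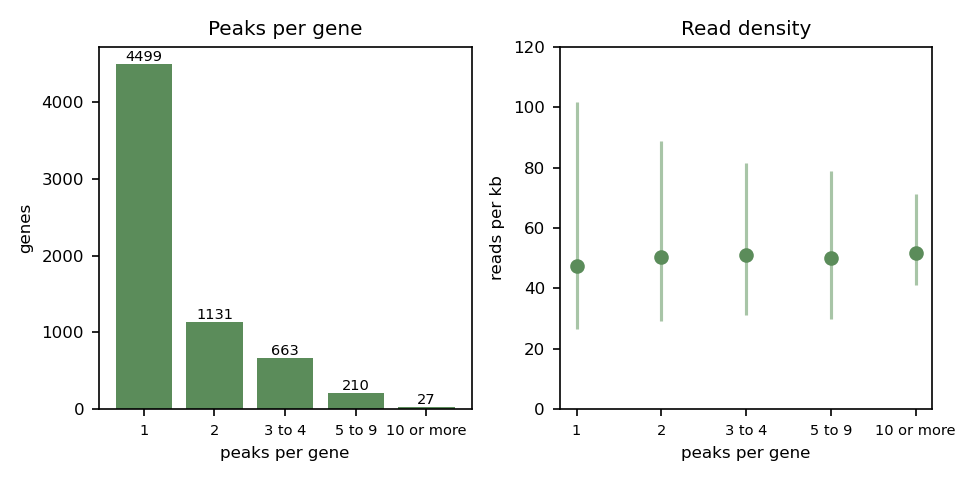
Left, number of genes by peaks per gene, from 4499 with 1 peak to 27 with 10 or more. Right, median read density in reads per kb with bars from the 10th to the 90th percentile of genes, where the medians stay close to 50 and the upper bar shortens as the number of peaks grows.

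The 15 genes with the most peaks had 11 to 21 each and differed in function. Magi1, a scaffold protein of tight and adherens junctions, had 21 peaks over 663 kb with 2260 reads, at 66.5 reads per kb. Arfip1, which binds small GTPases at the Golgi, had 19 peaks. Etl4, an embryonic notochord gene, had 17 peaks with 2621 reads. Fgfr2, a fibroblast growth factor receptor, and the unnamed gene AC114005.5 had 15 each, spread over 2632 kb and 3009.5 kb. Only 5 of the 15 Fgfr2 peaks and 7 of the 19 Arfip1 peaks were assigned to no other gene.

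Several others encode transcription regulators. Etv6, an Ets family repressor needed for blood stem cells, had 14 peaks within 206 kb and 1206 reads, but its density of 41.0 reads per kb put it at percentile 35.7. Zeb2, a zinc finger repressor of epithelial genes, had 12 peaks within 156 kb at 42.1 reads per kb. Aff3 had 13 and Rere, a nuclear receptor coregulator, had 12. The cytoskeletal genes Fmnl2 and Utrn had 13 each, the phosphodiesterase Pde4d had 12 and Frmd4a had 11. The long intergenic RNA genes 2610307P16Rik and Pvt1, the neighbour of Myc, had 14 and 12. All 15 of these genes were in the FLI1 list and 6 were in the ERG list, against 69.1% and 14.8% of all SOX7 genes. The peaks of each gene spanned 156 to 3009.5 kb, and the part of this span in the overlap was not tested. Their percentiles lay between 35.7 and 83.5, so none was among the densest 10%. Gene lengths on that build were not used, and their part in the number of peaks was not tested.

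Peak width had a median of 1451 bp over the 10029 peaks, from 701 to 12151 bp, and 339 were at least 4000 bp wide. A peak was assigned to 1 gene in 95.1% of cases, to 2 genes in 457 cases and to 3 or more in 34. In the 2031 genes with several peaks, the median distance from one peak to the next was 17.2 kb. The peaks of such a gene spanned a median of 37.6 kb. The place of a peak relative to exons and introns was not analysed here.

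By biotype, 5243 rows or 80.3% (79.3 to 81.2) were protein-coding. Processed transcripts made 335 rows, pseudogenes 294 and long intergenic RNAs (lincRNAs) 281. Small RNA classes followed with 112 snRNA, 107 snoRNA, 81 miRNA, 42 misc_RNA and 26 rRNA rows, and 9 rows were immunoglobulin segments. LincRNAs had a median percentile of 56.3 with 13.9% of rows in the densest 10%, and protein-coding genes 50.2 with 9.84%. Pseudogenes and snoRNA genes stood lower, at 40.1 and 40.2. Many of these rows had no peak to themselves: 32.7% of snoRNA rows, 31.9% of processed transcripts and 25.6% of lincRNAs shared every peak with another gene, against 7.78% of protein-coding genes. Their values are then those of the neighbour or host as well.

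Within the biotypes, the lincRNA 5730422E09Rik had 494 reads at 395 reads per kb and Gm17692 and Gm17690 had 192 and 159, both in peaks shared with other genes. The processed transcript Gm13403 had 371 reads per kb, and 1600002D24Rik had the most peaks of that class, 5 peaks with 1327 reads. Among snRNA genes, which encode the RNAs of the spliceosome, a U5 copy outside the shared peak had 239 reads per kb and a U6 copy 208. 7SK is the RNA that holds the elongation factor P-TEFb inactive. A row labelled 7SK on chromosome 7 had 470 reads at 348 reads per kb, and a further 7SK row had 105. Whether these copies make a working RNA is not known here. SNORA17 led the snoRNA genes at 165 reads per kb. These RNAs exist in many near-identical copies, so reads may have been split between them, and their values are uncertain.

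Of the 81 miRNA rows, 62 carried clone names and 18 matched a RefSeq miRNA gene, 16 of them with a mature sequence to print. Mature sequences of 7 are shown, with the seed (bases 2 to 8, the part that pairs with targets) in capitals, to show which target families the listed loci belong to.
miR-802-5p: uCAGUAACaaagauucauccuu
miR-674-5p: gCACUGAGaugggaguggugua
miR-351-5p: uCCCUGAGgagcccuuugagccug
miR-363-3p: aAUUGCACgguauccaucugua
miR-290a-5p: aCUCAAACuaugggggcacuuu
miR-449c-5p: aGGCAGUGcauugcuagcugg
miR-30a-5p: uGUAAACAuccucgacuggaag
The seed of miR-351-5p is that of miR-125a-5p and miR-125b-5p, and the seed of miR-363-3p is that of miR-25-3p, miR-32-5p and miR-92a-3p. The seed of miR-449c-5p is shared with miR-34a-5p, that of miR-290a-5p with miR-292a-5p and miR-293-5p, and that of miR-30a-5p with miR-30c-5p and miR-30e-5p. No seed was shared among the 7.

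Densities of the miRNA loci ranged widely. The highest with a name was Mir193 at 123 reads per kb from 105 reads, in a peak that met both a FLI1 and an ERG peak. Mir802 stood at 101 reads per kb from 137 reads and Mir674 at 94.97 from 266 reads. Mir145, whose product is a marker of smooth muscle, had 2 peaks with 238 reads at 83.5 reads per kb. The X-linked genes Mir351 and Mir363 stood at 77.2 and 75.2 reads per kb, well above the chromosome X median of 28.5. Mir290, of the cluster that marks embryonic stem cells, had 2 peaks at 49.6 and was close to the median of the whole list. Mir30a was low at 26.8 reads per kb, percentile 9.26. The densest miRNA rows of all were the clones AC123853.1 at 246 and AC113291.1 at 167 reads per kb, and AC102528.1 had the most peaks, 4.

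Families and pathways were read against all protein-coding genes. Of 21900 RefSeq protein-coding genes, 5043 or 23.0% were in the SOX7 list, against 35.3% for FLI1 and 5.75% for ERG. The share was 7.89% for genes with 2 or more peaks, 11.5% for the denser part of the list and 21.3% for genes with a peak of their own. Among the listed ones, 34.3% had 2 or more peaks, 15.9% had 3 or more and 4.44% had 5 or more, and 9.99% were in the densest 10%. Of 42 families, 28 had a larger share listed than all genes. The interval lay above 23.0% in 14 families, below it in 9 and held it in 19. Members that share a peak are not independent, and the intervals were not adjusted for the number of families, so this count is a description only.

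**Figure D3:**
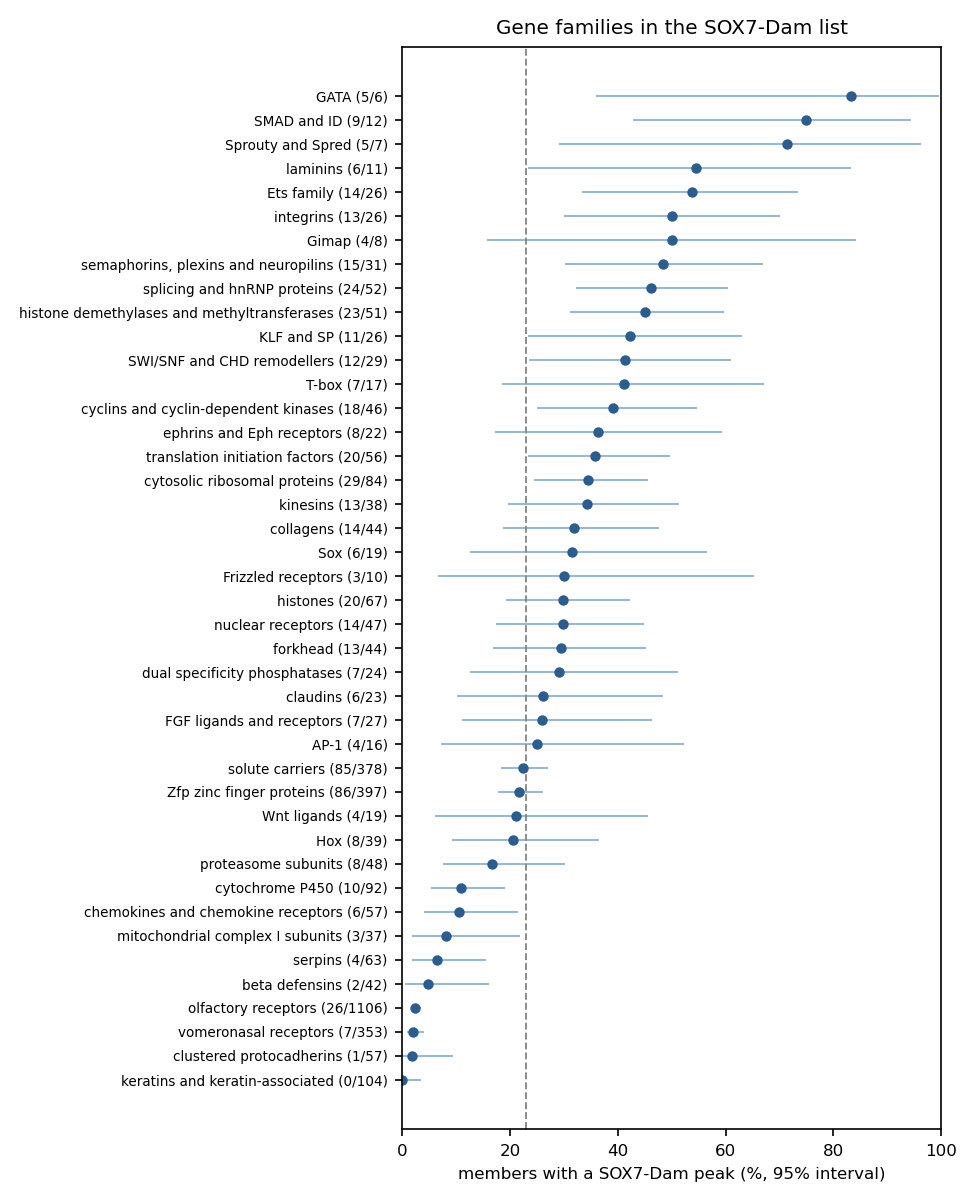
Share of each family's members in the SOX7 list in percent, with 95% binomial intervals and the dashed line at the 23.0% of all protein-coding genes (numbers in brackets are listed over all members). GATA, SMAD and ID, and Sprouty and Spred genes stand at the top and sensory receptors, protocadherins and keratins at the bottom.

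Among transcription factor families, GATA factors, zinc finger proteins of blood, heart and gut, had 5 of 6 members listed. Gata2, a regulator of blood stem cell formation, had 135 reads at 74.96 reads per kb and Gata3 62 reads at 72.9, the latter in a peak shared with other genes. Gata6 and Gata4 had 3 peaks each, with 401 reads at 69.7 and 769 reads at 53.8 reads per kb. The Ets family, which includes FLI1 and ERG themselves, had 14 of 26 members listed, and 5 of the 14 had 3 or more peaks. Elf1 was densest at 127 reads per kb from a single peak of 114 reads. Erg had 2 peaks with 451 reads at 100.2 reads per kb, and both met FLI1 peaks. Fli1 had 9 peaks with 1520 reads and Ets1 7 peaks with 1058 reads, of which 4 and 5 met FLI1 peaks. Etv2, an early inducer of the blood and vessel lineages, had 1 peak with 112 reads at 45.7 reads per kb.

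SOX genes were listed in 6 of 19 cases, a share of 31.6% whose interval (12.6 to 56.6) held that of all genes. Sox7 itself had 2 peaks with 314 reads at 131 reads per kb (117 to 146), percentile 96.3. This was not particular to SOX7-Dam: in the FLI1 list Sox7 had 2 peaks at 352 reads per kb, percentile 99.6. In the ERG list it stood at percentile 66.2. The other listed SOX genes were Sox13 at 98.6, Sox4, in a shared peak, at 72.0, Sox5 at 70.2, Sox17 at 54.6 and Sox6 at 52.2 reads per kb. All 6 stood above the median of the list. Sox6, a regulator of red cell globin switching, had the most peaks of the family, 7, while Sox18 was not listed.

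T-box factors pattern mesoderm and heart, and 7 of 17 were listed, with 3 of the 7 in the densest 10%. Their median percentile of 86.9 had an interval of 9.24 to 99.4, so with so few genes it does not place the group. Tbx21, known from T cells, had 215 reads at 239 reads per kb, Tbx3 160 reads at 123 and Tbx5 101 reads at 112. The Tbx3 peak was also assigned to another gene. Hox genes, which set position along the body axis, were listed in 8 of 39 cases, close to the share of all genes, with a median percentile of 87.5 (24.3 to 98.9), and 5 of the 8 had no peak of their own. Hoxd3 led at 192 reads per kb. Hoxa5 and Hoxa3 shared 1 peak of 139 reads at 103 reads per kb, and 5 of the 8 Hox genes had no peak of their own.

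Other factor families varied. KLF and SP factors had 11 of 26 listed, led by Klf3 at 130.3 reads per kb, and Klf8 on chromosome X had 5 peaks. Nuclear receptors had 14 of 47, with Nr5a2 at 243 and Vdr, the vitamin D receptor, at 202 reads per kb. Forkhead factors had 13 of 44 and none in the densest 10%. AP-1 factors had 4 of 16 with a median percentile of 28.4. The large group of Zfp zinc finger proteins had 86 of 397 or 21.7%, close to the background, with Zfp1 at 206 reads per kb and Zfp608 at 7 peaks and 1561 reads.

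Among chromatin and RNA-processing families, splicing and hnRNP proteins were listed in 24 of 52 cases, with a median percentile of 64.6 (45.2 to 88.3) and 6 genes in the densest 10%. Among them Snrpd1 stood at 236 and Hnrnpa3 at 185 reads per kb. Histone methylases and demethylases had 23 of 51 listed, with Prdm15 at 128 reads per kb and Prdm6, a smooth muscle regulator, at 10 peaks. SWI/SNF and CHD remodellers had 12 of 29, led by Chd1 at 149.9 reads per kb, and Arid5b had 7 peaks. Histone genes had 20 of 67 listed, 29.9% with an interval of 19.3 to 42.3 that held the share of all genes. Their share was 0.981 times that of all genes for those with a peak of their own and 0.189 times for those with 2 or more peaks. In the densest 10% were 6 histone genes, and 6 of the 20 had no peak of their own, such as Hist1h3c and Hist1h2bb, which shared 1 peak at 129 reads per kb.

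Translation families were also listed more often than all genes when any peak counted, with few peaks each. Cytosolic ribosomal protein genes had 29 of 84 listed or 34.5% (24.5 to 45.7), and 0 of the 29 had 3 or more peaks. Their share of genes with 2 or more peaks was 0.452 times that of all genes. Of the 29 ribosomal protein genes 7 had no peak of their own. Counted by genes with a peak of their own, the share was 1.23 times that of all genes. Rps13 was densest at 119 reads per kb. Initiation factors had 20 of 56, with Eif1 at 128 reads per kb. Cyclins and their kinases had 18 of 46, and Cdk15 had 7 peaks. Proteasome subunits had 8 of 48 listed, 16.7% with an interval of 7.48 to 30.2 that held the share of all genes. Mitochondrial complex I subunits had 3 of 37, 8.11% (1.70 to 21.9), below that share.

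Polycomb proteins, which keep developmental genes silent, form more than one complex. PRC2, the histone methylase complex, had 4 of 5 members listed, and PRC1, which ubiquitinates histone H2A, had 3 of 10. Suz12 had 71 reads at 83.4 reads per kb and Jarid2 4 peaks with 399 reads at 82.2. Ezh1 stood lower at 42.6 reads per kb and Eed at 33.7, while Ezh2 was not listed. With so few members, the intervals of the PRC2 share (28.4 to 99.5) and the PRC1 share (6.67 to 65.2) overlapped.

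Adhesion, matrix and guidance families came next. Integrins had 13 of 26, with Itga1, a collagen receptor subunit, at 93.3 reads per kb. Laminins had 6 of 11, led by Lamc1 with 4 peaks at 82.3 reads per kb. Collagens had 14 of 44, and the linked basement membrane genes Col4a1 and Col4a2 had 5 peaks at 69.0 and 2 peaks at 81.7 reads per kb.

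Semaphorins, plexins and neuropilins, which steer axons and vessels, had 15 of 31 listed with 6 of 15 at 3 or more peaks, with a median percentile of 37.2. The interval of this median was 14.7 to 52.0. Of the 15 genes, Nrp1 was densest at 115 reads per kb, followed by Sema4b at 74.2 and Nrp2 at 61.3. Ephrins and their receptors had 8 of 22 with a median percentile of 26.3 (16.7 to 72.3), led by Epha4 at 66.3. By read count in place of density, the median percentile of the semaphorin group was 62.5.

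Several families known from other lineages had few members listed. Keratins had 0 of 104 listed, which allows a share of up to 3.48%. Clustered protocadherins had 1 of 57, Pcdhga11, and vomeronasal receptors 7 of 353. Olfactory receptors had 26 of 1106 or 2.35% (1.54 to 3.43). Of the 26 olfactory genes listed, 6 or 23.1% were in the densest 10%, against 9.99% of all listed protein-coding genes. The 26 genes were too few to set this share apart from that of all listed genes. Olfr893 had 1047 reads at 249 reads per kb. The place of these few genes depended on the measure: their median percentile was 62.2 by density and lower by read count. Serpins, cytochrome P450 genes and chemokines with their receptors had 4 of 63, 10 of 92 and 6 of 57, or 6.35%, 10.9% and 10.5%.

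Functional lists, each with its roles, were read the same way. All 18 had a larger share listed than all genes, and the interval lay above 23.0% in 11. General housekeeping genes had 8 of 14 listed, 57.1%, also a share above that of all genes. Of these 8 genes 3 had no peak of their own, and counted by genes with 2 or more peaks the share was 0.905 times that of all genes. Their median percentile was 35.6 (1.73 to 83.6) and that of endothelial junction and surface genes 71.0 (41.4 to 75.8), with overlapping intervals. Lists of well-studied genes were chosen with results of these data known, so these shares support no direction.

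**Figure D4:**
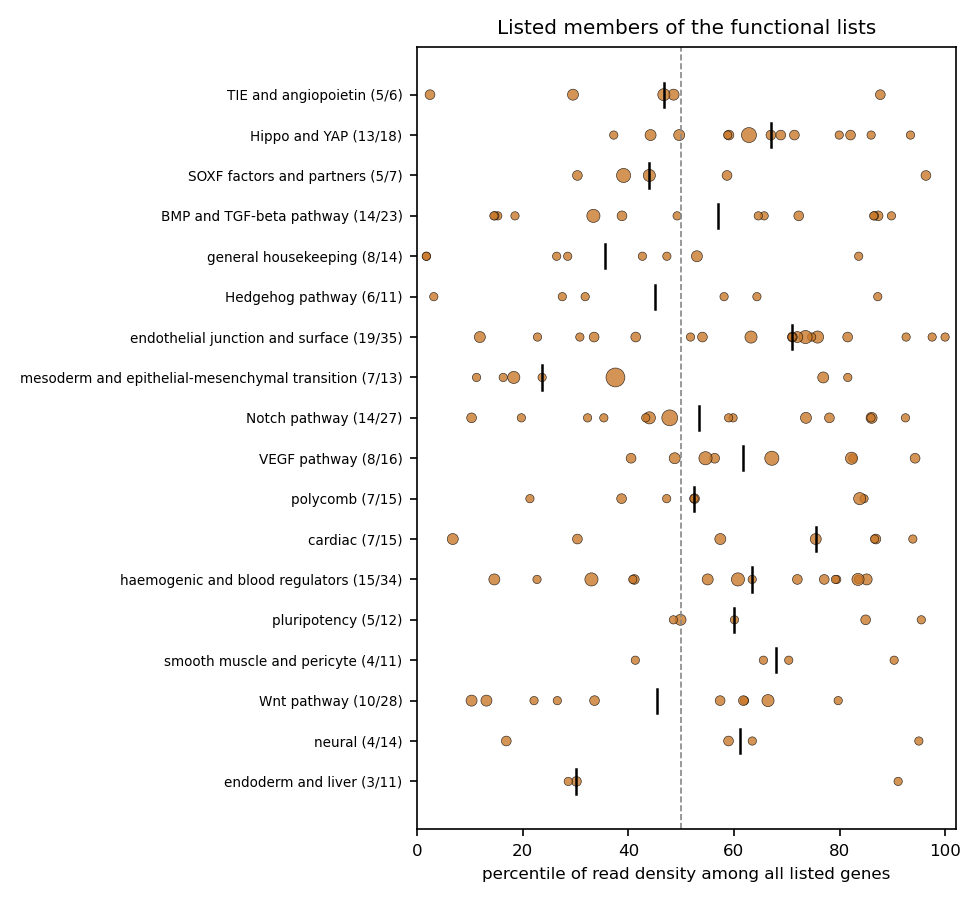
Percentile of read density among all 6530 listed genes for the listed members of each functional list, 1 circle per gene, with larger circles for more peaks, black ticks at list medians and the dashed line at percentile 50. The medians of the housekeeping, endoderm, mesoderm, SOXF, TIE, Wnt and Hedgehog lists lie to the left of the line. Those of the other lists, with endothelial, cardiac, Hippo, neural and pluripotency genes among them, lie to the right. Several medians rest on few genes, such as 3 for endoderm.

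The Hippo pathway, a kinase cascade that keeps the coactivators YAP and TAZ out of the nucleus, had 13 of 18 members listed, 72.2% (46.5 to 90.3), with a median percentile of 67.0 (49.6 to 82.1). Its kinases were listed in 3 of 4 cases, and Lats2, which phosphorylates YAP, had 115 reads at 109 reads per kb. Lats1 stood at 48.6 and Stk3 at 41.8. Both coactivators were listed, Yap1 at 54.9 and Wwtr1, which encodes TAZ, at 61.2 reads per kb. Of their DNA-binding partners, Tead1 had 7 peaks with 1187 reads within 101 kb, 5 of them meeting FLI1 peaks, and Tead4 stood at 79.4 reads per kb. The target genes Amotl2, Ankrd1 and Cyr61 stood at 85.9, 65.4 and 62.9 reads per kb. Of the 13 genes, 3 had 3 or more peaks.

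The VEGF pathway, which drives the growth of vessels, had 8 of 16 members listed. None of 5 ligands was listed, too few genes to set their share apart from that of all genes. The list held 2 of 3 receptors, 2 of 2 coreceptors and 4 of 6 signal transducers. Kdr had 4 peaks with 995 reads at 79.9 reads per kb, and 2 of the 4 met FLI1 peaks. Flt1, a decoy receptor, had 5 peaks over 170.4 kb with 324 reads at 51.8, and 0 met a FLI1 peak. Nrp1 had 2 peaks with 236 reads at 115 reads per kb and Nrp2 6 peaks with 414 reads at 61.3. Prkca, a protein kinase C, stood at 79.9 with 92 reads.

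TIE receptors bind angiopoietins and steady vessels. Both receptors, the phosphatase Ptprb that restrains them and 2 of 3 ligands were listed. Ptprb was densest with 597 reads at 89.8 reads per kb. Tek, the TIE2 receptor on which the cells were sorted, had 4 peaks with 698 reads at 46.8, and Tie1 stood at 47.9. Angpt1 and Angpt2 were lower, at 37.5 and 20.5 reads per kb, and both Angpt2 peaks were shared with another gene.

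Among endothelial junction and surface genes, 19 of 35 were listed and 3 of the 19 were in the densest 10%. Besides Egfl7 these were Edn1, with 320 reads at 145 reads per kb (129.9 to 162), and F11r, a tight junction adhesion molecule, with 649 reads at 106 reads per kb. The cadherin-binding catenins Ctnnd1 and Ctnna1 had 4 and 5 peaks at 70.0 and 67.4. Cdh5, the cadherin of endothelial junctions, stood at 66.0 and Pecam1 at 64.9. Tjp1, a tight junction scaffold, was the lowest of the 19 at 28.7 reads per kb.

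Notch signalling, which sets arterial fate, had 14 of 27 members listed. All 4 nuclear effectors were listed: Maml3 with 8 peaks and 757 reads at 47.4, Rbpj with 4 peaks at 45.5, Maml1, in a shared peak, at 54.9 and Maml2 at 27.6 reads per kb. Of the targets 4 of 6 were listed, and Hey1, an arterial repressor, was densest with 84 reads at 105 reads per kb. Numb, an inhibitor of Notch, had 358 reads at 86.2 and the receptor Notch3 73 reads at 85.8. Ligands were listed in 2 of 5 cases, Dll3 at 40.8 and Jag1 at 39.0, both below the median. Dll4 was not listed.

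Canonical Wnt signalling had 10 of 28 listed, 35.7% (18.6 to 55.9), with a median percentile of 45.5. The listed genes were 4 of 6 of the destruction complex, 3 of 6 nuclear effectors, 2 of 3 membrane inhibitors and 1 of 2 coreceptors. Axin2 was densest at 75.4 reads per kb. Tcf7l1, a repressor that binds Wnt target genes, had 4 peaks with 377 reads at 60.8, and Gsk3b stood at 57.1. None of 7 secreted inhibitors and none of the 4 transducers was listed. The intervals of these shares reached 41.0% and 60.2% and so held the share of all genes. Wnt ligands had 4 of 19, with Wnt7b at 99.2, and Frizzled receptors 3 of 10, with Fzd3 at 133 reads per kb.

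Hedgehog signalling had 6 of 11 listed, each with 1 peak. Both inhibitors were listed, Sufu at 88.8 and Hhip at 54.2 reads per kb. Gli2 stood at 58.7 and Ihh at 21.4. Counts here were low, from 30 to 80 reads.

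BMP and TGF-beta signalling had 14 of 23 listed. Bmper, a secreted BMP regulator of endothelium, was densest with 72 reads at 95.9 reads per kb, followed by Bmp6 at 88.9 and the endothelial receptor Acvrl1 at 87.5. Bmpr1a had the most peaks, 5 within 30.4 kb, at 39.6. SMAD and ID genes, the transducers and a direct target group, had 9 of 12 listed with a median percentile of 33.1 (10.4 to 75.6). Smad7, the inhibitory SMAD, stood apart at 171 reads per kb, Id1 had 3 peaks at 69.8, and Id2 was at 16.6. Sprouty and Spred genes, feedback inhibitors of growth factor signalling, had 5 of 7 listed, 4 of the 5 with 3 or more peaks, led by Spry4 at 72.3 reads per kb.

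Of blood regulators, 12 of 22 transcription factors, 3 of 7 surface genes and 0 of 5 globins were listed. The interval of the globin share reached 52.2% and so held the share of all genes. Nfe2, a factor of platelets and red cells, had 482 reads at 84.5 reads per kb. Runx1, required for blood to arise from endothelium, had 4 peaks with 457 reads at 81.6, and 3 of the 4 met FLI1 peaks. Cd44, a hyaluronan receptor, stood at 81.7. Ikzf1 and Meis1 had 5 peaks each, at 39.4 and 56.1 reads per kb. The cardiac list had 7 of 9 transcription factors and 0 of 6 structural genes listed, and the interval of its whole share (21.3 to 73.4) held 23.0%. Its 6 structural genes were too few to set their share apart from that of all genes. Tbx5, Tbx20 and Nkx2-5 stood at 112, 88.0 and 87.5 reads per kb and Hand2 at 25.0.

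Over all lists, transcription factors were listed in 31 of 64 cases, 48.4% (35.8 to 61.3), and structural genes in 2 of 18, 11.1% (1.38 to 34.7). The interval for structural genes held the 23.0% of all genes, and that for transcription factors lay above it. Receptors were listed in 14 of 22 and ligands in 10 of 24. The lists behind these roles were chosen with results of these data known, so these shares support no direction. The 2 structural genes were Nes, a neural intermediate filament gene, at 121 and Myh11 at 44.0 reads per kb.

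Among the SOXF partners, Tcf4 had 6 peaks over 227 kb with 428 reads at 42.8 reads per kb, and Mef2c stood at 37.9. Pluripotency genes had 5 of 12 listed, with Tbx3, whose peak is shared with another gene, at 123 reads per kb, Sall4 at 84.2, Lin28a at 55.7 and Esrrb at 48.7. Mesoderm and transition genes had 7 of 13, with 3 of 9 transcription factors and 4 of 4 adhesion, matrix and filament genes, led by Vim at 78.5 and Fn1 at 71.4. Smooth muscle and pericyte genes had 4 of 11, led by Pdgfrb at 97.1 and Pdgfb at 64.3. Neural genes had 4 of 14 and endoderm genes 3 of 11, with Pdx1 at 99.9 reads per kb. The shares of the pluripotency, smooth muscle, neural and endoderm lists had intervals that held 23.0%, and that of mesoderm and transition genes began at 25.1%. Defining markers of the sorted cells were listed, Tek and Kit, the latter at 43.9 reads per kb, but peaks do not test which cells were present.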

How the data were processed

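DamID libraries of SOX7, FLI1 and ERG and of 2 Dam-only controls were sequenced as 60 bp single reads from 50 ng of sheared DNA after 10 cycles of amplification, per the labels' protocols. Per the file headers, the deposited tables give a read count and a coverage signal, reads per kb of peak, for each gene. The signal equalled count times 1000 over summed peak length in all 6530 SOX7 rows, within 0.015 reads per kb, so the deposited values are neither scaled to depth nor divided by the control. Per the submitters' processing notes the genome build is mm9. The peak caller, its threshold, the aligner and how genes were assigned were not given in the sources used here.

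Ranks, percentiles, shares and intervals were computed with Python 3.11.15, pandas 2.3.3, numpy 2.4.6 and scipy 1.17.1, and figures with matplotlib 3.10.9. The share and rank steps were tested on simulated lists. Symbols, older ones included, matched RefSeq (GRCm38.p6, names only) for 96.5% of protein-coding SOX7 rows. Families were symbol patterns, and 1 family is not reported here. Members and lists were chosen with earlier results of these data known. Named by rule were the 20 densest genes, the 15 with most peaks, the 3 least dense, and for each biotype, family and list its 3 densest and its most-peak member, and list members with 5 or more peaks. Every other gene named was chosen after its values were seen. Alternatives took the denser part of the list, genes with a peak of their own, other peak numbers and read counts. Density and peak alternatives were run for sets with at least 10 listed members.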

Additional observations from a re-analysis of the deposited data

How the results depend on the processing

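The SOX7 library is 1 sample, so no replicate could be left out. No paired analysis was possible because the result comes from no test and the group holds 1 library. Shares of families and lists below are folds over the share of all protein-coding genes under the same setting, for those that moved by more than their interval. That interval does not cover the counting error of the share under the other setting. When only genes with 2 or more peaks counted, the fold was 0.189 for histones, 0.452 for ribosomal proteins, 0.667 for kinesins, 0.905 for housekeeping genes and 0.0115 for olfactory receptors. It was 0 for Hox, AP-1, Wnt ligand, chemokine, Gimap, serpin, beta defensin, Hedgehog and smooth muscle genes. Only 7.89% of all genes had 2 or more peaks, so a group as small as the 8 Gimap genes can hold 0 without standing apart. The fold rose to 2.30 for collagens, 2.48 for cyclins, 2.67 for Sox, 2.71 for the Wnt pathway, 2.88 for ephrins and 3.35 for blood regulators. It was 3.41 for both Ets and KLF and SP factors, 3.49 for remodellers, 3.62 for endothelial junction genes, 4.22 for both SMAD and ID genes and the cardiac list, and 4.49 for semaphorins. For the VEGF pathway it was 5.54, for Hippo 5.63, for Sprouty and Spred 7.24, for SOXF and partners 9.05 and for TIE 10.6. When only the denser part of the list counted, it was 1.94 for histones, 2.67 for splicing proteins, 2.74 for Sox, 5.79 for GATA, 0 for AP-1 and vomeronasal receptors, 0.678 for Zfp proteins, 1.12 for semaphorins, 4.96 for Sprouty and Spred, 1.45 for both SMAD and ID genes and the TIE list, 4.83 for Hippo, 3.47 for endothelial junction genes and 1.24 for housekeeping. With a peak of their own, Hox genes had a fold of 0.361. Ranked by read count, median percentiles were 62.5 for semaphorins, 36.9 for olfactory receptors and 79.0 for endothelial junction genes. With 5 or more peaks in place of 3, the ratio of the share to that of all listed genes was 0 for histones, initiation factors, splicing proteins, kinesins, forkhead factors, nuclear receptors, integrins and the Wnt pathway, 0.265 for solute carriers, 0.524 for Zfp proteins, 4.82 for Ets and 4.50 for semaphorins. Without genes that share every peak, 82.5% of rows were protein-coding and 66.5% had 1 peak. In the denser part of the rows 66.3% had 1 peak and 1.50% lay on chromosome X. GATC was in 48.4% of promoter windows of the densest 10%. The cause of these shifts was not tested. Library depth is not known from the table, which counts reads in listed peaks only, and a gene outside the list had no assigned peak, which does not mean no reads.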

Other observations

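Peaks gathered in some regions of the mm9 genome. Of 1970 windows of 1 Mb with a peak, the median held 4 peaks and the highest 29, at chr11:11000001-12000000, where Ddc had 9 and Grb10 and Ikzf1 5 each. A window on chromosome 9 held 23 peaks, 9 of Fli1 and 7 of Ets1, which are neighbours there. Another with 22 peaks on chromosome 2 held 12 of Zeb2 and 9 of Gtdc1. The histone cluster window on chromosome 13, which includes Abt1, held 23.

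Chromosome X supplied 407 genes, 6.23% of the SOX7 list, at a median of 28.5 reads per kb against 50.4 on the autosomes. In the FLI1 list it supplied 4.52% and in the ERG list 4.31%. The X to autosome medians were 42.1 against 70.4 reads per kb for FLI1 and 22.5 against 32.5 for ERG.

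The widest peak, of 12151 bp, was assigned to Gm13657, and Tal1, a master regulator of blood, had a peak of 9551 bp. A peak at chr1:90023658-90024908 was assigned to 8 genes, 6 of them variants of the Ugt1a detoxification locus. The snoRNA host Snhg12 shared a peak of 5601 bp with 5 other genes. These regions were chosen after their values were seen.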
